A study of Mus musculus with 2 samples.

Results

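The 9 genes described here are the transforming growth factor beta (TGF-beta) ligands Tgfb1, Tgfb2 and Tgfb3, the signalling receptors Tgfbr1, Tgfbr2 and Acvrl1, the co-receptors Tgfbr3 and Eng, and Tgfbi, a secreted matrix protein named for its induction by TGF-beta. They were taken by gene symbol and not by a cut on a measured value, though they were chosen with earlier results of these data known. All 9 were present among the 17758 genes of a single-cell table and among the 16906 genes of a bulk table. PDGFRA+ cells of Pdgfra-H2BGFP mice, which make a nuclear green fluorescent protein from the Pdgfra locus, were sorted from peripheral lung for bulk RNA-seq (1 library). Sorted peripheral lung cells of Wild type mice gave a 10x Chromium 3′ v3 library (1 library). Both groups were postnatal day 3 and are called control lungs in the labels, and neither a treatment, nor the sort gates, nor whether animals were pooled is stated. With 1 sample in each of the 2 groups no difference could be tested, and every interval below covers counting error only.

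TGF-beta ligands are secreted in a latent form, held by their own propeptide and by latent TGF-beta binding proteins in the matrix, and are released by integrins and proteases. The free ligand binds TGFBR2, which then phosphorylates TGFBR1, and SMAD2 and SMAD3 carry the signal to the nucleus. Betaglycan (Tgfbr3) presents ligand, TGFB2 above all, to TGFBR2, while endoglin (Eng) and ACVRL1 form the receptor of endothelial cells for BMP9, BMP10 and, in some settings, TGF-beta. In the newborn lung, balanced TGF-beta signalling is needed for the formation of alveolar septa, in which myofibroblasts lay down elastin.

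After filtering, 10180 of 11306 cells were kept and fell into 36 clusters. The 9 members were left out of the clustering. Clusters were named from marker genes alone, so the names carry "-like". The 25 named classes included 2040 mesenchymal-like, 1022 endothelial-like, 462 epithelial-like, 4267 myeloid-like, 2227 lymphoid-like and 43 mesothelial-like cells, and 119 cells stayed unnamed. Levels are given as CPM, the summed depth-corrected UMI (unique molecule) values of a class scaled to 1000000, for the 24 classes of 30 or more cells. A 3′ UMI counts transcripts without regard to their length. Cells held 709 to 3760 detected genes with a median of 2012, and the bulk library held 171910584 reads.

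The sequences upstream of 4 members with unlike patterns are shown because their levels separate the cell classes: Tgfb1 was highest in myeloid-like, Tgfb2 in contractile mesenchymal-like, Eng in capillary endothelial-like and Tgfbi in alveolar myofibroblast-like cells. They are RefSeq sequences on GRCm38.p6, read 5′ to 3′ on the strand of the gene and ending before its annotated start: 250 bases for Tgfb1 (chr7:25686752-25687001, plus strand), Tgfb2 (chr1:186705990-186706239, minus strand) and Eng (chr2:32646345-32646594, plus strand), and 187 bases for Tgfbi (chr13:56609336-56609522, plus strand). Capitals mark AGGAAG (the core of ETS factor sites), CAGAC (a SMAD box) and TGANTCA (AP-1), each searched on both strands.
Tgfb1: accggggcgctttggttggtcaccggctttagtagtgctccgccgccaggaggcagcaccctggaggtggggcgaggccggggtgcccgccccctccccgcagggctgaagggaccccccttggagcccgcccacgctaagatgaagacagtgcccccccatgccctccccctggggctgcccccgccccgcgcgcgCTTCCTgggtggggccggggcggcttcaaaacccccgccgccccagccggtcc
Tgfb2: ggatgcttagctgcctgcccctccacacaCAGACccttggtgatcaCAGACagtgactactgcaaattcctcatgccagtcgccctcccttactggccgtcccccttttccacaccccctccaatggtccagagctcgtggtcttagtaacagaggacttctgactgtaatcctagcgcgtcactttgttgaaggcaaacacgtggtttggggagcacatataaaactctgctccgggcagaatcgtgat
Eng: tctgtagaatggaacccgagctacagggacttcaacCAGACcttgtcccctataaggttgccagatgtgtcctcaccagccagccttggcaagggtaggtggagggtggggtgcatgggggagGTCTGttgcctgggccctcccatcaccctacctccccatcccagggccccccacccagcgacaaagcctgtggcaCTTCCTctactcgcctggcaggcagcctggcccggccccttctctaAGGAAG
Tgfbi: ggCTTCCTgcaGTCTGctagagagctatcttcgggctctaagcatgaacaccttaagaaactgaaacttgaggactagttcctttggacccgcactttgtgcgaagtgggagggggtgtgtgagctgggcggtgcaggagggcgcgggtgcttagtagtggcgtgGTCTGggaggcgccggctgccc
The Eng window held 2 ETS and 2 SMAD motifs. At least 1 ETS motif lay within 250 bases upstream of 29.5% of 32851 RefSeq promoters, and 2 or more in 6.25%. The shorter Tgfbi window held 1 ETS and 2 SMAD motifs, the Tgfb2 window 2 SMAD motifs, and the Tgfb1 window 1 ETS motif. The SMAD motif occurred in 42.2% of all promoters, and 2 or more times in 11.7%. The AP-1 motif, found in 6.75% of promoters, had no match in these 4 windows, and no matches of different motifs overlapped. A match describes letters and not a bound site, and upstream sequences were found for 6 of the 9 members.

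The 3 ligand isoforms divided the lung by cell lineage. Tgfb1 was the main ligand transcript of leukocytes and endothelium. Myeloid-like cells (41.9% of cells) held 66.6% of its UMIs, and lymphoid-like cells (21.9% of cells) held 16.4%. Endothelial-like cells (10% of cells) held 9.51%, near their share of cells. Mesenchymal-like cells (20% of cells) held 87.2% of the Tgfb2 and 82.3% of the Tgfb3 UMIs. Tgfb1, whose knockout in mice causes fatal inflammation, was highest in interstitial macrophage-like cells at 474 CPM, followed by non-classical monocyte-like cells at 452 CPM and classical monocyte-like cells at 432 CPM. A Tgfb1 UMI was found in 91.4% (95% exact interval 88.3 to 93.8) of interstitial macrophage-like cells, 85.4% (81.6 to 88.7) of non-classical and 88.9% (84.7 to 92.2) of classical monocyte-like cells. The interstitial lead rests on a cluster of 332 of the 428 cells, led by Adamdec1, whose name was not stable. Of its cells, 222 were named alveolar macrophage-like under a stricter cell filter (1000 or more genes and up to 5% mitochondrial UMIs) and 273 at Leiden resolution 2 in place of 1, and classical monocyte-like cells were then highest in Tgfb1. The cluster had 505 CPM of Tgfb1 and the other 96 interstitial macrophage-like cells 367 CPM.

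Outside the monocytes and macrophages, aerocyte endothelial-like cells, the thin capillary cells of gas exchange, came near the alveolar macrophage-like cells in Tgfb1, at 353 and 352 CPM. General capillary endothelial-like cells had 142 CPM and T cell-like cells 99.5 CPM. The 5 mesenchymal-like classes lay between 36.2 CPM (adventitial fibroblast-like) and 56.8 CPM (pericyte-like), and alveolar type 2-like cells were lowest of the 24 classes at 22.5 CPM. No class lacked Tgfb1, so no class gives a background share for it.

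Tgfb2, the isoform with the greatest need for betaglycan, was highest in contractile cells that wrap vessels and airways. Smooth muscle-like cells had 383 CPM with a UMI in 76.6% of cells (70.7 to 81.8), and pericyte-like cells had 312 CPM with a UMI in 64.6% (55.8 to 72.8). Alveolar type 1-like cells, the flat epithelium of the alveolus, followed at 244 CPM, with a UMI in 69.4% (51.9 to 83.7) of only 36 cells. Alveolar type 2-like cells of the same epithelium had 10.2 CPM and a UMI in 3.73% (2.1 to 6.08).

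Alveolar myofibroblast-like cells at 202 CPM and lipofibroblast or matrix fibroblast-like cells at 188 CPM had similar Tgfb2 levels, with overlapping intervals of their shares of cells (58.9 to 66.4% and 55 to 62.1%). In endothelial-like classes Tgfb2 ran from 9.07 CPM in aerocyte-like to 66.1 CPM in arterial-like cells, and myeloid-like and lymphoid-like classes were at 12 CPM or below. T cell-like cells, taken as a class in which little Tgfb2 is expected, had a UMI in 1.15% of cells at a median of 1647 detected genes, against 2402 genes in smooth muscle-like cells.

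Tgfb3, whose loss causes cleft palate and delayed lung development in mice, peaked at the outer layers and in myofibroblasts. Mesothelial-like cells had 141 CPM (38 UMIs in 43 cells), adventitial fibroblast-like cells 139 CPM and alveolar myofibroblast-like cells 110 CPM. The shares of cells with a UMI in these 3 classes, 58.1% (42.1 to 73), 52.7% (46.2 to 59.2) and 49.2% (45.3 to 53.1), overlapped in their intervals, and adventitial fibroblast-like cells were highest with predicted doublets kept and under the stricter cell filter, which named no mesothelial-like cells. Lipofibroblast or matrix fibroblast-like cells had 27.1 CPM with a UMI in 12.8% (10.5 to 15.3). No Tgfb3 UMI was seen in 47 arterial-like, 78 venous-like or 129 dendritic cell-like cells, which allows shares of cells with a UMI of up to 6.38%, 3.85% and 2.33%.

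**Figure D1:**
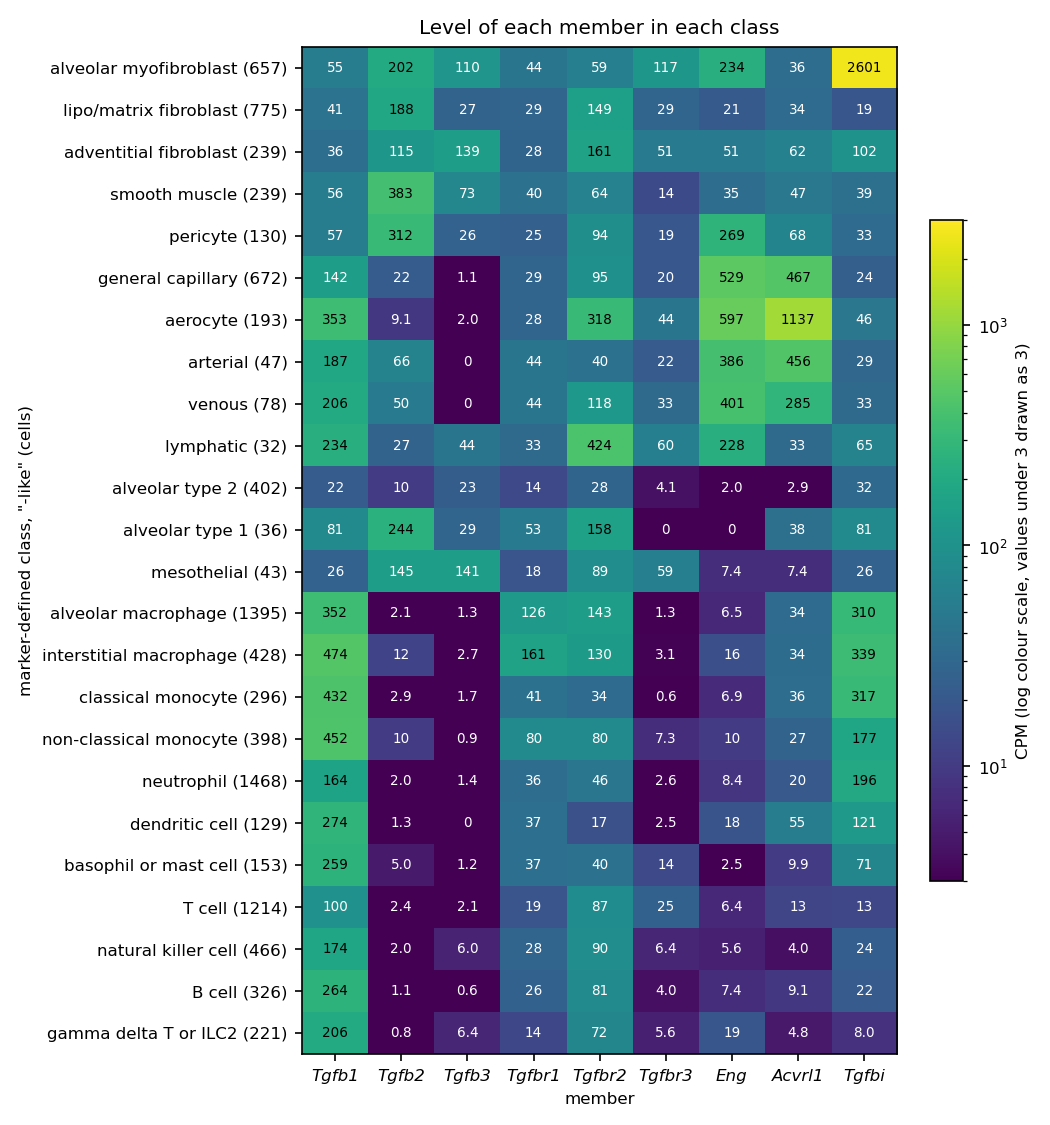
Level in CPM (log colour scale) of the 9 members in the 24 classes of 30 or more cells, each cell of the map holding its value and each row its number of cells. Tgfb1 fills the leukocyte and endothelial rows and Tgfb2 the mesenchymal rows. Tgfb3 is highest in mesothelial-like, adventitial fibroblast-like and alveolar myofibroblast-like cells, and Eng and Acvrl1 are highest in the blood endothelial rows. Tgfbi stands at 2601 CPM in alveolar myofibroblast-like cells.

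Set against each other within a class, the isoforms gave different mixtures even among neighbouring mesenchymal-like types. In alveolar myofibroblast-like cells Tgfb2 made up 55% of the ligand UMIs, Tgfb3 30% and Tgfb1 14.9%. Pericyte-like cells were nearer to a single isoform, with 78.9% Tgfb2, and adventitial fibroblast-like cells had 47.9% Tgfb3 and 39.6% Tgfb2. Tgfb1 was 95.6% or more of the ligand UMIs in each myeloid-like and lymphoid-like class of 30 or more cells, and 97% in aerocyte-like cells. The summed ligand level was highest in smooth muscle-like cells at 511 CPM and interstitial macrophage-like cells at 489 CPM, and lowest in alveolar type 2-like cells at 55.6 CPM.

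**Figure D2:**
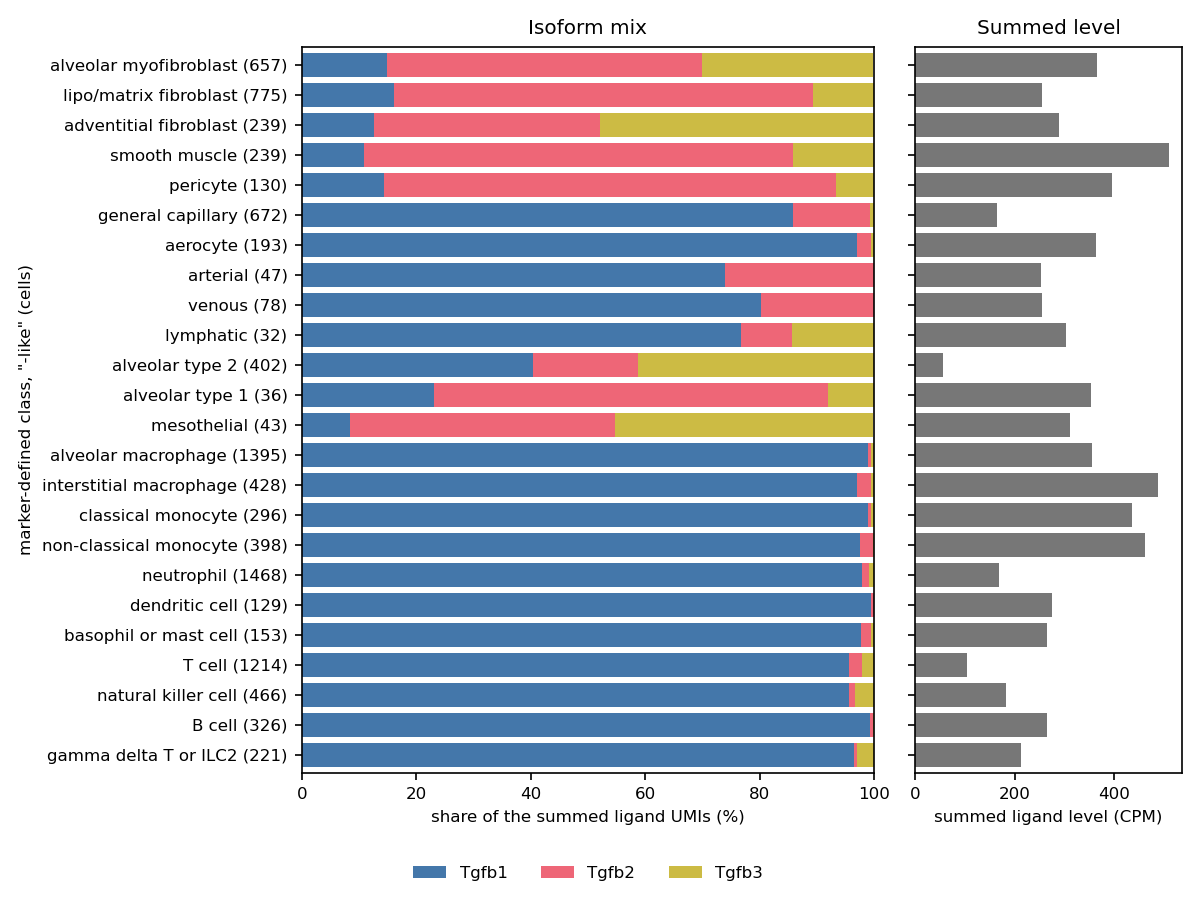
Share of each ligand isoform among the ligand UMIs of a class (left, %) and the summed ligand level (right, CPM) in the 24 classes, with the number of cells in brackets. Leukocyte rows are almost all Tgfb1, pericyte-like cells are 78.9% Tgfb2, and adventitial fibroblast-like cells are 47.9% Tgfb3.

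UMIs of several isoforms were found in the same cell in some mesenchymal-like classes more than in others. These counts include Tgfb1, for which no class gives a background share, and the part of stray UMIs in them was not tested. At least 1 ligand UMI was present in 83.7% (80.7 to 86.5) of alveolar myofibroblast-like cells and UMIs of 2 or more isoforms in 46.3% (42.4 to 50.2). For smooth muscle-like cells the share with 2 or more isoforms was 39.7% (33.5 to 46.3), for pericyte-like cells 21.5% (14.8 to 29.6) and for lipofibroblast or matrix fibroblast-like cells 19.2% (16.5 to 22.2). With 2 UMIs of an isoform needed for detection, it was 5.94% in alveolar myofibroblast-like and 8.79% in smooth muscle-like cells. Values of 1 were rarer in cells with few genes. They made up 27.7% of the values above 0 in the 1000 cells with fewest genes and 74.3% in the 1000 with most. This cut may thus be less strict in smooth muscle-like cells, with a median of 2402 detected genes, which was not tested. In interstitial macrophage-like cells 92.5% had a ligand UMI, but 3.97% (2.33 to 6.28) had 2 or more isoforms, at a median of 2522 detected genes against 2807 in alveolar myofibroblast-like cells.

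Of the TGFBR1 and TGFBR2 pair, Tgfbr2 was spread over all lineages while Tgfbr1 was highest in macrophages. Tgfbr1, the type I kinase, was highest in interstitial macrophage-like cells at 161 CPM and alveolar macrophage-like cells at 126 CPM, and their shares of cells were 56.8% (51.9 to 61.5) and 51% (48.3 to 53.6). Myeloid-like cells, 41.9% of all cells, held 68.6% of its UMIs and 38.9% of the Tgfbr2 UMIs. The Adamdec1-led cluster had 186 CPM of Tgfbr1 and the other 96 interstitial macrophage-like cells 75.2 CPM, and alveolar macrophage-like cells were the highest class where that cluster took their name. Non-classical monocyte-like cells had 80.5 CPM, and every other class was at 52.6 CPM or below, with alveolar myofibroblast-like cells at 44 CPM.

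Tgfbr2, the type II kinase that binds ligand, was highest in lymphatic endothelial-like cells at 424 CPM, where 31 of 32 cells (96.9%, 83.8 to 99.9) had a UMI. The stricter cell filter left 21 of these, under the minimum of 30, and aerocyte-like cells were then highest. Aerocyte-like cells followed at 318 CPM, then adventitial fibroblast-like cells at 161 CPM, alveolar type 1-like cells at 158 CPM and lipofibroblast or matrix fibroblast-like cells at 149 CPM. Alveolar macrophage-like cells had 143 CPM and interstitial macrophage-like cells 130 CPM. Within the endothelium arterial-like cells were lowest, at 40.4 CPM. T cell-like cells, in which Tgfbr2 is needed for tolerance, had 87.2 CPM, and dendritic cell-like cells were lowest at 16.6 CPM.

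UMIs of both kinases in the same cell were most frequent in macrophages. They occurred in 32.2% (27.8 to 36.9) of interstitial macrophage-like and 28.7% (26.4 to 31.2) of alveolar macrophage-like cells, 2 classes whose intervals overlap. Within the interstitial macrophage-like class the share was 35.8% (30.7 to 41.3) in the Adamdec1-led cluster and 19.8% (12.4 to 29.2) in the other 96 cells. The next classes of over 100 cells were non-classical monocyte-like cells at 11.3% (8.37 to 14.8), adventitial fibroblast-like cells at 9.62% (6.2 to 14.1) and lipofibroblast or matrix fibroblast-like cells at 9.42% (7.46 to 11.7). Alveolar myofibroblast-like cells had 8.22% (6.23 to 10.6), and neutrophil-like cells 1.43% (0.888 to 2.18) at a median of only 1012 detected genes. These shares are lower where depth or the level of either gene is lower. No class is known to lack both genes, so the shares give what was detected and not the share of cells that can respond.

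**Figure D3:**
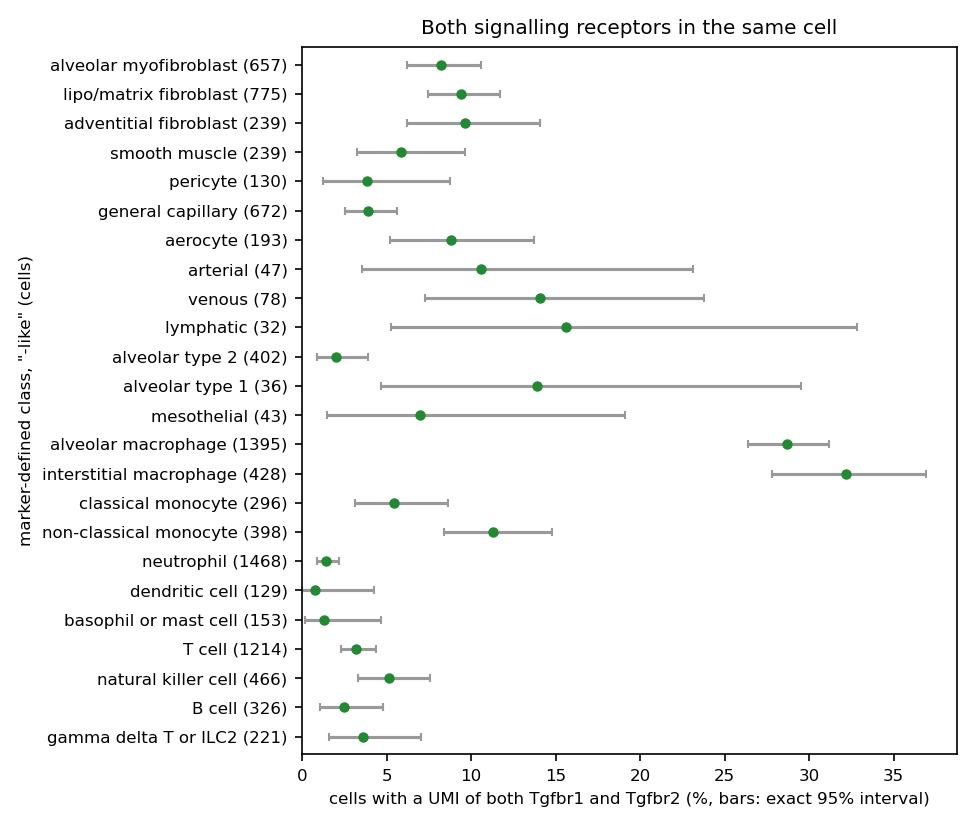
Percentage of cells of each class with a UMI of both Tgfbr1 and Tgfbr2, with exact 95% intervals as bars and the number of cells in brackets. The 2 macrophage-like classes, at 32.2% and 28.7%, stand apart from the other classes of over 100 cells, which reach 11.3%.

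Eng and Acvrl1 were high together in blood endothelium, while in lymphatic and some mesenchymal classes Acvrl1 was well below Eng. Acvrl1, a type I receptor mutated in hereditary haemorrhagic telangiectasia in humans, had 1137 CPM in aerocyte-like, 467 CPM in general capillary-like, 456 CPM in arterial-like and 285 CPM in venous-like cells. Eng, the other main gene of that disease, had 597 CPM in aerocyte-like, 529 CPM in general capillary-like, 386 CPM in arterial-like and 401 CPM in venous-like cells. In lymphatic-like cells Eng had 228 CPM and Acvrl1 32.6 CPM, with UMIs in 65.6% (46.8 to 81.4) and 15.6% (5.28 to 32.8) of 32 cells.

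Both Eng and Acvrl1 were detected in 82.4% (76.3 to 87.5) of aerocyte-like and 74.9% (71.4 to 78.1) of general capillary-like cells. In alveolar type 2-like cells, which should lack both, the share was 0.498% (0.0603 to 1.79) at a median of 2211 detected genes, against 2194 in general capillary-like cells. Over the 24 classes, log2 levels of Eng and Acvrl1 had a Pearson r of 0.77.

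Eng was also high in 2 mesenchymal-like classes in which Acvrl1 was below its level in blood endothelium. Pericyte-like cells had 269 CPM of Eng and 67.9 CPM of Acvrl1, the most Acvrl1 outside blood endothelium, with both detected in 20.8% (14.2 to 28.8) of cells. Alveolar myofibroblast-like cells had 234 CPM of Eng in 69.7% (66 to 73.2) of cells and 35.8 CPM of Acvrl1 in 19.9% (16.9 to 23.2). The 4 pan-endothelial markers summed to 44.3 CPM in alveolar myofibroblast-like cells, 74.8 CPM in pericyte-like cells and 6156 CPM in general capillary-like cells. The other 3 mesenchymal-like classes had 21.3 to 51.2 CPM of Eng.

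Tgfbr3, betaglycan, was highest in alveolar myofibroblast-like cells at 117 CPM, with a UMI in 53.4% (49.5 to 57.3). Lymphatic-like cells at 59.8 CPM, mesothelial-like cells at 59.3 CPM and adventitial fibroblast-like cells at 51.2 CPM came next. Smooth muscle-like cells, the class with the most Tgfb2, had 14.1 CPM of Tgfbr3. In myeloid-like classes it was 13.7 CPM or below, and 0 of 36 alveolar type 1-like cells had a UMI, which allows a share of up to 8.33%.

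Tgfbi, a secreted protein that binds collagen and integrins, had the highest level in a single class of the 9 members. Alveolar myofibroblast-like cells had 2601 CPM and a UMI in 99.8% (99.2 to 100) of 657 cells, with a median of 14 UMIs per cell. The 4 other mesenchymal-like classes had 19.2 CPM (lipofibroblast or matrix fibroblast-like) to 102 CPM (adventitial fibroblast-like). A second site of expression was the mononuclear phagocytes, with 339 CPM in interstitial macrophage-like, 317 CPM in classical monocyte-like and 310 CPM in alveolar macrophage-like cells and medians of 2, 2 and 1 UMIs per cell. In T cell-like cells, where little is expected, 5.85% (4.6 to 7.32) had a UMI, at a median of 1647 detected genes. Of 17 Tgfbi UMIs in alveolar type 1-like cells, 15 came from 1 cell.

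The alveolar myofibroblast-like class was not uniform in these genes. Its cluster of 520 cells led by Agt and Fgf18 had 2836 CPM of Tgfbi, and its cycling cluster of 137 cells 1739 CPM. At Leiden resolution 2, 108 of its cells formed a cluster led by Aspn, Lrrc15 and Scx, a split that was singled out after its values were seen. These cells had 4488 CPM of Tgfbi, against 2245 CPM in the other 549 cells. Their Eng level was 97.7 CPM against 260 CPM, with a UMI in 42.6% (33.1 to 52.5) against 75% (71.2 to 78.6). Pdgfra, the receptor gene that names the bulk sort, had 33.1 CPM in the 108 cells and 384 CPM in the others. Tgfb3 was at 158 against 101 CPM and Tgfbr1 at 75.6 against 38.1 CPM.

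Ratios between groups of cells set these levels beside those of all genes with 20 or more UMIs, with 1 CPM added to both sides. A gene is counted as higher from a log2 ratio of 1 upward and as lower from -1 downward. In mesenchymal-like cells over all other cells, 4 members were higher, beside 21.3% of the 15395 genes measured, and 2 lower, beside 16.1%. Tgfb2 had 214 CPM in mesenchymal-like and 8.44 CPM in all other cells (log2 ratio 4.51), Tgfb3 73.6 and 4.25 CPM (3.83), Tgfbi 891 and 145 CPM (2.61, or 1.74 at Leiden resolution 2, where the 108 Aspn-led cells stayed unnamed) and Tgfbr3 58.6 and 9.96 CPM (2.44). Tgfb1 had 47.8 CPM in mesenchymal-like and 236 CPM in all other cells (-2.28). Acvrl1 had 41.6 and 88.2 CPM (-1.07), which was -0.71 under the stricter cell filter.

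In endothelial-like cells over all other cells, 2 members were higher, beside 10.3% of genes, and 3 lower, beside 19.1%. Acvrl1 had 557 CPM in endothelial-like and 26.2 CPM in all other cells (log2 ratio 4.36), and Eng 514 and 32.8 CPM (3.93). Tgfbi (-3.40), Tgfb3 (-2.63) and Tgfb2 (-1.14) were lower. Tgfb1 was at 190 CPM in endothelial-like and 197 CPM in all other cells.

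In myeloid-like cells over all other cells, 2 members were higher, beside 10.5% of genes, and 5 lower, beside 28.3%. Tgfbr1 had 86.2 CPM in myeloid-like and 27.3 CPM in all other cells (log2 ratio 1.62), and Tgfb1 319 and 111 CPM (1.52). Tgfb2 (-4.10), Eng (-3.74), Tgfb3 (-3.70), Tgfbr3 (-3.10) and Acvrl1 (-1.91) were lower, while Tgfbr2 had 90.6 and 98.9 CPM (-0.12).

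In alveolar myofibroblast-like over other mesenchymal-like cells, 3 members were higher, beside 6.24% of the 12779 genes measured, and 1 lower, beside 9.15%. Tgfbi had 2601 CPM in alveolar myofibroblast-like and 39 CPM in other mesenchymal-like cells (log2 ratio 6.02), Eng 234 and 51.4 CPM (2.16) and Tgfbr3 117 and 29.4 CPM (1.96). Tgfbr2 was lower, at 59 CPM in alveolar myofibroblast-like and 131 CPM in other mesenchymal-like cells (-1.14). The pooled group is mixed for Tgfbr2 and Eng. Its Tgfbr2 ran from 64.1 CPM in smooth muscle-like to 161 CPM in adventitial fibroblast-like cells. Its Eng ran from 21.3 CPM in lipofibroblast or matrix fibroblast-like to 269 CPM in pericyte-like cells, above the alveolar myofibroblast-like level. Tgfb3 lay just under the limit at 110 and 55.4 CPM (0.98), and Tgfb2 was near equal at 202 and 220 CPM (-0.13).

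**Figure D4:**
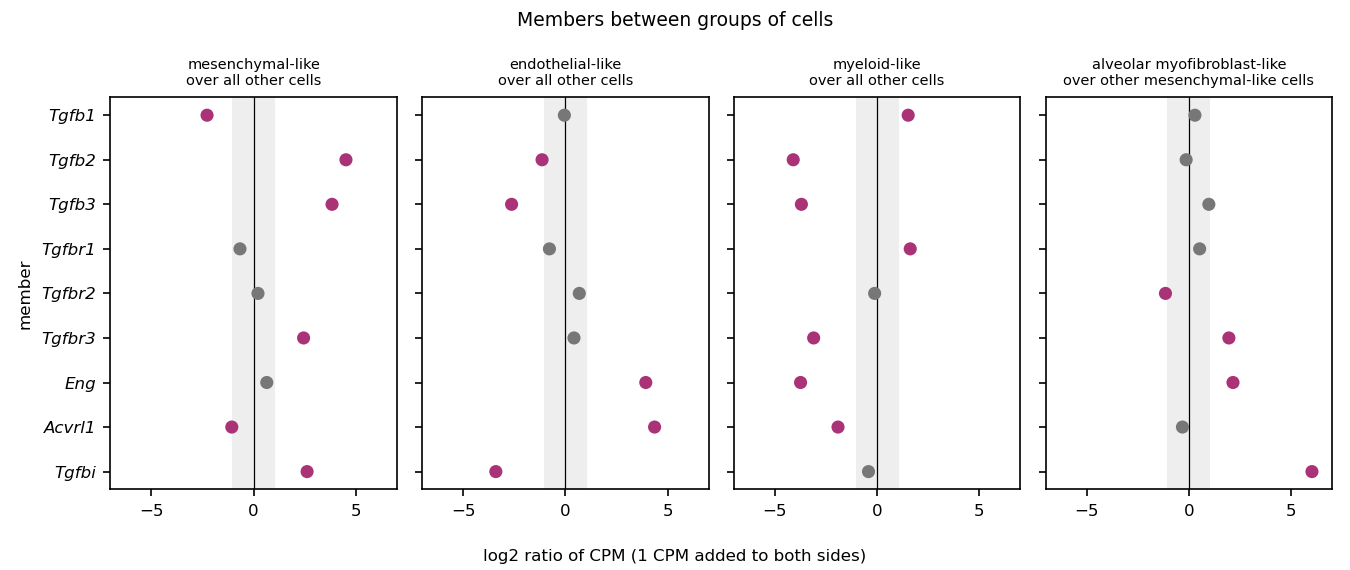
Log2 ratio of CPM of the 9 members in 4 comparisons of groups of cells (1 CPM added to both sides), with the range between -1 and 1 shaded and members outside it in purple. Tgfbi reaches 6.02 in alveolar myofibroblast-like over other mesenchymal-like cells and -3.40 in endothelial-like cells, and Tgfb1 and Tgfb2 lie on opposite sides in the mesenchymal and the myeloid comparison.

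The genes that hold, release, transmit or damp the ligands were described from 5 lists of 64 genes, of which 61 were matched by symbol in the single-cell table. Ccn1, a TGF-beta response gene, was not matched, though it was measured under its older symbol Cyr61. It is missing from the counts, medians and named genes of its list. Named genes are those with the largest ratios by a set rule. In alveolar myofibroblast-like over other mesenchymal-like cells, 3 of 15 measured latency and activation genes were higher and 2 lower (median log2 ratio 0.01), beside 6.24% and 9.15% of all genes and an all-gene median of 0.10. Itgav, the alpha chain of the integrins that free latent TGF-beta, had 131 CPM in alveolar myofibroblast-like and 41.5 CPM in other mesenchymal-like cells (1.64), and Thbs1, a latency activator, 575 and 187 CPM (1.61). Ltbp4, a latent TGF-beta binding protein of elastic fibres, was at 131 and 345 CPM (-1.39), and Lrrc32, which anchors latent TGF-beta on the cell surface, at 1.5 and 13.3 CPM (-2.52). In endothelial-like over all other cells the largest ratios of the list were those of Mmp9, a protease of neutrophils, at 5.03 and 99.3 CPM (-4.06), and Thbs1, at 24.8 and 356 CPM (-3.79). Nrros, the anchor of latent TGF-beta on myeloid cells, was 1 of the 3 genes most like Tgfb1 over the 24 classes (r = 0.915).

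Of 10 SMAD signal transduction genes, 1 was higher and 0 lower in alveolar myofibroblast-like cells (median 0.29, against 0.10 over all genes). That gene was Smad3, a transducer of TGFBR1, at 35.3 CPM in alveolar myofibroblast-like and 12.5 CPM in other mesenchymal-like cells (1.43). The next largest were Tab1 (0.65), Smad5 (0.55) and Zfyve9 (0.41). Smad3 was lower in endothelial-like cells, at 4.31 CPM against 15.3 CPM in all other cells (-1.62). Smad5, which carries BMP and ACVRL1 signals, was higher in endothelial-like cells at 79.5 CPM against 30.8 CPM (1.34).

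Among 13 inhibitors and ligand-binding antagonists 1 was higher and 2 lower in alveolar myofibroblast-like cells (median 0.47, against 0.10 over all genes). Smad6, an inhibitory SMAD of the BMP branch, had 41 CPM in alveolar myofibroblast-like and 11 CPM in other mesenchymal-like cells (1.81), and 157 CPM in endothelial-like against 8.14 CPM in all other cells (4.11). Fmod, a proteoglycan that binds TGF-beta, was at 13.5 and 51.4 CPM (-1.85), and Bambi, a kinase-dead decoy receptor, at 40.5 and 95.5 CPM (-1.22). Skil, a SMAD co-repressor, had 129 and 65.1 CPM (0.98).

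Of the genes known to respond to TGF-beta, more were lower than higher in the class with the most Tgfbi, set against the other mesenchymal-like classes pooled. Of 14 measured, 1 was higher and 6 lower in alveolar myofibroblast-like over other mesenchymal-like cells (median -0.58), beside 6.24% and 9.15% of all genes and an all-gene median of 0.10. Ltbp2, an elastic fibre protein, had 848 CPM in alveolar myofibroblast-like and 153 CPM in other mesenchymal-like cells (2.46). Fibronectin (Fn1) had 321 and 1969 CPM (-2.61), periostin (Postn) 126 and 717 CPM (-2.50) and follistatin (Fst) 4.5 and 16.7 CPM (-1.68). Single classes stand behind these values. Fn1 was highest in lipofibroblast or matrix fibroblast-like cells (2922 CPM), Postn (3155 CPM) and Fst (168 CPM) in pericyte-like cells, and Ltbp2 in alveolar myofibroblast-like cells. Cyr61 (Ccn1), which is not in the counts of this list, was highest in smooth muscle-like cells (671 CPM). Whether the ratios reflect TGF-beta response or cell type was not tested. In mesenchymal-like over all other cells 11 of 15 were higher and 2 lower (median 4.11, against 0.23 over all genes), and this list holds collagen and muscle genes that mark mesenchyme, such as Col3a1 and Acta2, which were lower in endothelial-like over all other cells (-4.34 and -4.42).

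Of 7 measured genes of the ACVRL1 and endoglin axis, 4 were higher in endothelial-like over all other cells and 1 lower (median 2.07, against -0.02 over all genes). Hey1, a transcriptional repressor, had 60.7 CPM in endothelial-like and 1.98 CPM in all other cells (4.37), and Id1, a direct target of BMP receptors, 503 and 60 CPM (3.05). In alveolar myofibroblast-like cells, which had less Acvrl1 than Eng, Id3 was at 580 CPM against 514 CPM in other mesenchymal-like cells (0.18), Lrg1 at 3.25 against 4.48 CPM (-0.37) and Hey1 at 1.5 against 4.73 CPM (-1.20). Hey2 had 1 UMI, or 0.25 CPM, in alveolar myofibroblast-like and 17.1 CPM in other mesenchymal-like cells (ratio 0.0147, exact interval 0.000368 to 0.083). In this comparison 1 of the 7 was higher and 2, Hey1 and Hey2, lower (median 0.09, against 0.10 over all genes).

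The genes whose levels most resembled each member's over the 24 classes were found among 9447 genes by Pearson's r of log2 CPM, a description of classes that share a library. Among the members themselves, Tgfb2 and Tgfb3 had an r of 0.68, and Tgfb1 had -0.64 with Tgfb2 and -0.78 with Tgfb3. The most alike genes were Pitpna, Ppp2ca and Nrros for Tgfb1 (r = 0.934 to 0.915), Tead1, Smarca1 and Cyr61 for Tgfb2 (0.939 to 0.926) and Sdc2, B3gnt9 and Foxp2 for Tgfb3 (0.882 to 0.852). Flt1, Ttyh3 and Clec14a were most like Acvrl1 (0.886 to 0.875), and Ppm1f and Hspa12b most like Eng (0.884 to 0.875). Gypc, Mpdz and Dbn1 were most like Tgfbr3 (0.850 to 0.819) and Abhd12, Atp6ap1 and Tbc1d9 most like Tgfbr1 (0.875 to 0.818). Tgfbr2 and Tgfbi had the weakest matches, Agfg1, Pald1 and Ppp2r1a for Tgfbr2 (0.732 to 0.716) and Stk40, Sgpl1 and Adamdec1 for Tgfbi (0.748 to 0.707).

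Pdgfra itself had 184 CPM in the bulk library of PDGFRA+ cells and 32.6 CPM in the single-cell library (log2 ratio 2.46, or 0.71 with bulk TPM). It had 328 CPM in alveolar myofibroblast-like cells (-0.83) and 351 CPM in cells with a Pdgfra UMI (-0.93). Pdgfra is a marker used to name the first of these groups and it defines the second. Both groups were thus chosen in part by Pdgfra, so these 2 ratios are no measure of the sort. The part of this choice and of assay, genotype and sort in them cannot be told apart. In the bulk library, Tgfbi was among the most abundant transcripts and Tgfb3 was the leading ligand. On the authors' TPM scale, which compares genes per length, Tgfbi had 4521 TPM, above 99.9% of listed genes. Tgfb3 had 246 TPM, Tgfb1 78.9 TPM and Tgfb2 46.1 TPM, so that Tgfb3 made up 66.4% of the summed ligand TPM, Tgfb1 21.2% and Tgfb2 12.4%. In alveolar myofibroblast-like cells of the single-cell library the leading ligand by UMIs was Tgfb2, at 55%. The assays count transcripts differently, and the part of assay, genotype and sort in this difference cannot be told apart.

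Among the receptors, Eng had 333 TPM, Tgfbr2 136 TPM, Acvrl1 75.7 TPM, Tgfbr3 39.1 TPM and Tgfbr1 12.6 TPM. The 4 pan-endothelial markers summed to 33.3 TPM and the 4 pan-leukocyte markers to 55 TPM, against 26003 TPM for the 4 pan-mesenchymal markers. Erythroid markers summed to 27566 TPM, and the part of other cells in these levels was not tested. Exons of Tgfb2, Tgfb3, Eng and Acvrl1 overlap antisense genes by 61 to 257 bases in the GENCODE annotation of mm10 and those of Tgfbr3 overlap a gene of the same strand by 297 bases, and no source used here says whether counting used the strand. In bulk RNA fewer cells of a type and less RNA per cell cannot be told apart.

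Set over the whole single-cell library in CPM, 6 members were higher, beside 27.5% of the 13900 genes measured, and 1 lower, beside 23.3%. Tgfb3 had 420 CPM in bulk (95% Poisson interval 417 to 423) and 19 CPM in the single-cell library (4.40), Tgfbi 6057 CPM (6045 to 6069) and 303 CPM (4.32) and Eng 576 CPM (572 to 579) and 80.1 CPM (2.83). Tgfbr3 (2.51), Tgfbr2 (1.77) and Tgfb2 (1.12) were also higher in bulk, and Tgfb1 was lower at 85.2 CPM (83.9 to 86.6) and 196 CPM (-1.19). With bulk TPM in place of CPM the ratios of Tgfbr3 (0.91), Tgfbr2 (0.51) and Tgfb2 (-0.17) no longer counted as higher, and Tgfbr1 counted as lower (-1.95), so that 3 members were higher, beside 18.6% of genes, and 2 lower, beside 29.8%.

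Over alveolar myofibroblast-like cells alone, Tgfbr2 had the largest ratio, at 328 CPM in bulk and 59 CPM in those cells (2.45), followed by Tgfb3 (1.92), Acvrl1 (1.91), Eng (1.30) and Tgfbi (1.22). Tgfb2 had 114 CPM in bulk (112 to 116) and 202 CPM in those cells (-0.82), and Tgfbr3 120 and 117 CPM (0.04). Over the 866 cells with a Pdgfra UMI, Tgfb3 (2.28), Tgfbi (2.27), Eng (1.70), Tgfbr2 (1.68) and Acvrl1 (1.59) were higher in bulk. Markers of adventitial fibroblasts, a class high in Tgfbr2, Tgfb3 and Acvrl1 among mesenchymal-like cells, summed to 4457 TPM in bulk, with 7 of 7 listed and a lowest value of 141 TPM, and their part in these ratios was not tested.

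**Figure D5:**
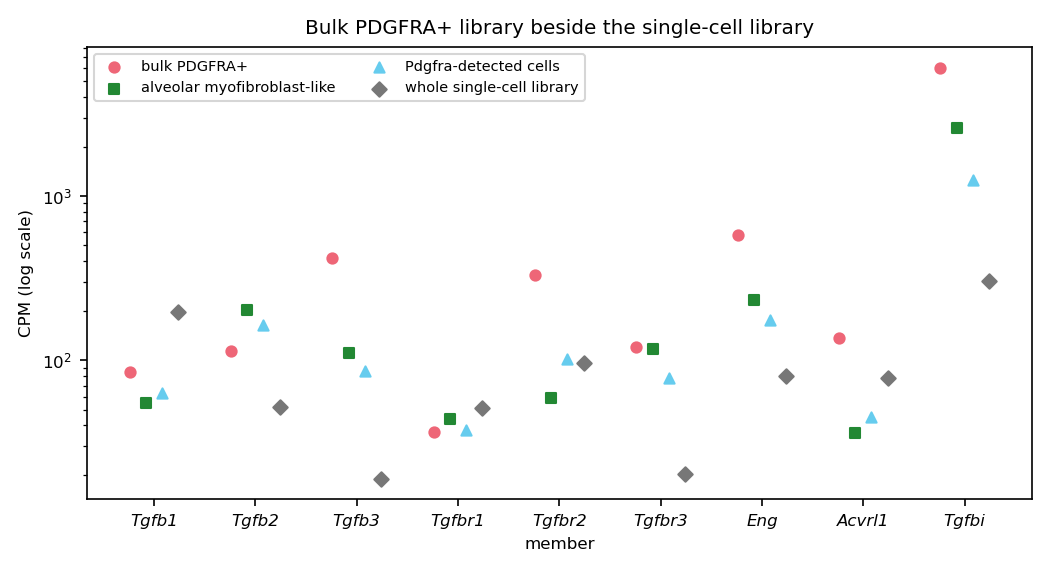
Level in CPM (log axis) of the 9 members in the bulk PDGFRA+ library, in alveolar myofibroblast-like cells, in the 866 cells with a Pdgfra UMI and in the whole single-cell library. Tgfbi is highest in each of the 4, from 6057 CPM in bulk to 303 CPM in the single-cell library, and Tgfb1 and Tgfbr1 are the 2 members with their highest value in the whole library.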

How the data were processed

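The study measured RNA in sorted peripheral lung cells by single-cell RNA-seq and in sorted PDGFRA+ cells by bulk RNA-seq, 1 library each. The deposited single-cell table holds a whole-number score per gene and cell that the authors had scaled to a near equal depth: cell totals run from 3859 to 6899, and 27.7% of values above 0 equal 1 in the 1000 cells with fewest genes against 74.3% in the 1000 with most. These depth-corrected UMIs were planned for as UMIs, and sums over cells were used in the same way. Cell Ranger 5.0 and Seurat 3.2.2 are named in the submitters' processing notes, with no build given in the sources used here. The deposited bulk table holds the authors' estimated counts, TPM and FPKM (FPKM not used), and 15.9% of the counts are not whole. Trim Galore, HISAT2, featureCounts, DESeq2 and mm10 are named in the submitters' processing notes, without versions.

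Cells with 500 or more detected genes and up to 10% mitochondrial UMIs were kept, and 480 of 10660 cells called doublets by scrublet (scanpy 1.11.5) were removed. Cells were scaled to 10000 and log-transformed, and clustered on 2000 variable genes with 30 principal components, 15 neighbours and Leiden resolution 1. The members and the matched list genes were left out of the clustering, but Cyr61 (Ccn1), which was not matched, was not excluded. Clusters were named from marker lists, with details of the naming rule set after the data were seen. Members, markers and lists were chosen with earlier results of these data known. Named list genes had 100 or more UMIs and were the 4 largest ratios per list in alveolar myofibroblast-like over other mesenchymal-like cells and the 2 largest in endothelial-like over all other cells. Alike genes were the 3 with the highest r among genes with 500 or more UMIs and a class level of 20 CPM or more, of which 1 is not reported here. Shares have exact Clopper-Pearson 95% intervals, bulk CPM exact Poisson 95% intervals, and a count of 0 allows up to 3 cells. Ratio calculations were tested on simulated data. Alternatives were other cell filters, doublets kept, resolution 2, 5 CPM added, other UMI minimums, detection at 2 UMIs and other bulk scales.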

Additional observations from a re-analysis of the deposited data

How the results depend on the processing

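No paired analysis was possible because each group has 1 library. Of 120 alternatives of the main counts, highest class levels, shares and list medians, 105 stayed within 1.5 times or the counting interval and 15 moved. Of 288 for the ratios of single members, 259 stayed, 24 moved and 5 turned in sign. A turn in sign was counted only where the main log2 ratio was 1 or more in size. Under the stricter cell filter (1000 genes, 5% mitochondrial, 7414 cells) the count of members lower in mesenchymal-like cells was 1 (beside 16.3% of genes), the share of alveolar myofibroblast-like cells with a ligand UMI 86.8%, and that of interstitial macrophage-like cells with both receptors 25.2%. Detection at 2 UMIs lowered the share with both receptors to 0.152% in alveolar myofibroblast-like, 3.27% in interstitial macrophage-like and 2.07% in aerocyte-like cells, and the share with a ligand to 44.4%, 76.9% and 52.3% in the same classes. With bulk TPM in place of CPM, 3 members were higher (18.6% of genes) and 2 lower (29.8%) than in the single-cell library, and Tgfb2 turned to -0.17. Over alveolar myofibroblast-like cells in place of the whole library, 0 members were lower in bulk (19.3% of genes), Tgfb1 turned to 0.63 and Tgfb2 to -0.82. Over Pdgfra-detected cells these were 0 (22% of genes), 0.44 and -0.51. Without the Adamdec1-led cluster, an alternative chosen after seeing the data, interstitial macrophage-like cells had 75.2 CPM of Tgfbr1 and both receptors in 19.8% of cells. At resolution 2 the 108 Aspn-led cells stayed unnamed, and the mesenchymal ratio of Tgfbi fell to 1.74, against 2.61 at resolution 1. The class with the highest level was kept for 5 of 9 members under the stricter filter, 8 with doublets kept and 7 at resolution 2, the changes being those of Tgfb1, Tgfbr1, Tgfb3 and Tgfbr2. With 1 library per group, spread between animals is not known.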

Other observations

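A cluster of 28 interstitial macrophage-like cells led by Prg4, Fcna and Retnla, singled out after its values were seen, had 142 CPM of Tgfb2. A Tgfb2 UMI was found in 35.7% of these cells (18.6 to 55.9), and the main interstitial macrophage-like cluster had 2.51 CPM. It held 24 of the 31 Tgfb2 UMIs of its class.

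The 119 cells that stayed unnamed had 299 CPM of Tgfb1 and 233 CPM of Tgfbi, at a median of 1120 detected genes.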
